A study of Mus musculus with 12 samples.

Results

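The genes described here are the matrix metalloproteinases (Mmp), the ADAM proteases (Adam), their secreted ADAMTS relatives (Adamts), the ADAMTS-like proteins (Adamtsl) and the tissue inhibitors of metalloproteinases (Timp). They were chosen by symbol alone, as the family name followed by a number, in the deposited tables of mouse heart RNA. The rule found 78 of 27179 genes, of which 23 were Mmp, 27 Adam, 19 Adamts, 5 Adamtsl and 4 Timp genes. The RNA came from heart tissue of 12-week-old C57Bl/6J mice whose food held 0 kcal% fat (the fat-free diet) or 60 kcal% fat (the high-fat diet) from 4 days before surgery until the hearts were taken 1 week after it. The operation was either transverse aortic constriction (TAC), a tie around the aorta that loads the left ventricle with pressure, or sham surgery. The 4 groups were fat-free sham (n = 3), fat-free TAC (n = 3), high-fat sham (n = 2) and high-fat TAC (n = 3). The labels give no transgene or drug for any of them. The first replicate of high-fat sham was not analysed here.

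Metalloproteinases are zinc enzymes that cut collagens, proteoglycans and other matrix proteins, and most are made as inactive precursors. ADAM proteases sit in the cell membrane and release the outer parts of growth factors and receptors, while ADAMTS proteases are secreted and trim procollagens and proteoglycans. TIMP proteins bind the active site of these enzymes and block it. In the pressure-loaded heart, fibroblasts, muscle cells and immune cells all take part in remodelling the matrix, and this balance of proteases and inhibitors is one of its known controls.

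Values are read counts per gene that the authors normalized within each diet, called normalized counts below. Libraries held 25906622 to 39699027 normalized counts, and 57 to 62 of the 78 genes had a count in any 1 library. Summed over the 78 genes, the libraries held 31358 to 38686 counts in fat-free sham, 41075 to 57121 in fat-free TAC, 33152 to 36597 in high-fat sham and 42896 to 75926 in high-fat TAC. A log2 fold change sets TAC against sham on the scale of log2(normalized count + 1), ± SE, and adjusted p is from limma with Benjamini-Hochberg adjustment over all genes tested, two-sided, with a threshold of 0.1. P-values measure the spread between libraries, since the labels do not say that each came from a separate animal. In RNA of mixed tissue, fewer cells of a type and less RNA per cell cannot be told apart. All 5 heart muscle markers (Myh6, Tnnt2, Actc1, Ryr2 and Myl2) were present in every library, with sums of 800528 to 1609034 counts. Libraries of 1 group differed in the level of an atrial marker, and whether they differed in atrial tissue was not tested. Myl7, the atrial myosin light chain, had 9915, 274 and 8426 counts in the fat-free sham replicates and 1758, 23 and 75 in fat-free TAC. It had 4 and 6 in high-fat sham and 14839, 10 and 6 in high-fat TAC. Values are listed in the order of the replicate numbers throughout, which for high-fat sham are 2 and 3.

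Of the 78 genes, 13 were listed at 0 in every library, among them the plasma enzyme gene Adamts13, the collagenase genes Mmp1a and Mmp1b, and 8 Adam genes. A further 14 had counts too low for a test on either diet, with at most 27 counts in any library. On the fat-free diet 49 genes could be tested, and TAC hearts had higher levels of 21 and lower levels of 3. Over all 13995 genes tested there, 14.2% were called higher and 10% lower. On the high-fat diet 51 could be tested, of which 23 rose and 2 fell, beside 16.9% called higher and 14.8% lower of 14274 genes. The median log2 fold change was 0.49 over the 49 genes and -0.015 over all genes on the fat-free diet, and 0.72 over the 51 genes and -0.014 over all genes on the high-fat diet. Scaled by library total alone, the median of all genes moved to 0.13 and 0.40 and that of the protease and inhibitor genes to 0.63 and 1.14, so both medians moved up together. Some genes met the filter on low values through TAC libraries, having too few sham libraries at 10 counts. They were 7 on the fat-free diet, of which Adam12, Adamts4 and Adamts8 were called higher, and 5 on the high-fat diet, of which Adamts4, Adamts16 and Adamts20 were. Without them 18 of 42 and 20 of 46 genes were called higher. These counts describe the genes that passed the filter. Calls of genes that met it through TAC libraries are given no weight, here and below.

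Of the 49 genes tested on both diets, 21 were called on both, 19 higher and 2 lower, and none in opposite directions. Of all 13861 genes tested on both diets, 10.3% were called higher on both, 6.28% lower on both and 0.0216% in opposite directions. The 21 genes were 87.5% of the fat-free calls and 84% of the high-fat calls among the protease and inhibitor genes. Over all genes 2297 were called on both diets, beside 3383 fat-free calls and 4519 high-fat calls. The 19 were Timp1, Mmp2, Mmp14, Mmp23, 5 Adam genes, 8 Adamts genes, Adamtsl2 and Adamtsl5. Among them, Adam12, Adamts4 and Adamts8 met the fat-free filter through TAC libraries, as Adamts4 did the high-fat filter. These calls are given no weight. Those lower on both diets were Mmp9 and Adamts7. In the authors' deposited table the same 24 fat-free genes passed, 21 higher and 3 lower, where 14.3% and 9.92% of all genes with an adjusted p did. On the high-fat diet it lists 31 higher and 3 lower, against 19.8% and 17.7% of all genes, including 23 of the 25 called by limma. Values of sham and TAC libraries did not overlap for 22 genes higher and 3 lower on the fat-free diet, against 19.7% and 17.6% of all genes tested. On the high-fat diet 33 were higher and 6 lower without overlap, against 30.6% and 33.1% of all genes tested. The 22 include Adam12, Adamts4, Adamts8 and Mmp13, and the 33 include Adam5, Adamts4, Adamts16, Adamts19 and Adamts20. These met the filter of that diet through TAC libraries, so their lack of overlap is given no weight.

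The high-fat calls rested on few libraries. Without sham replicate 2 none of the 25 held by limma (51 tested, with 2066 of 14274 genes at an unadjusted p under 0.05). Without sham replicate 3 the calls of Adamts4 and Mmp9 held, and without TAC replicate 3 that of Adamts4. All 25 held without TAC replicate 1, the library rich in atrial Myl7, and 7 more passed. Adamts4 met the high-fat filter through TAC libraries, so its call is given no weight. On the fat-free diet 15 of 24 calls held whichever library was left out. They were Timp1, Mmp14, Adam8, Adam10, Adam12, Adam15, Adam19, Adamts2, Adamts4, Adamts7, Adamts9, Adamts12, Adamts14, Adamtsl2 and Adamtsl5. Of these, Adam12 and Adamts4 met the fat-free filter through TAC libraries, so these calls are given no weight. With the 3 fat-free libraries above 1000 Myl7 counts left out (sham replicates 1 and 3 and TAC replicate 1) no gene of the whole table passed limma, and 2117 of 13995 had an unadjusted p under 0.05.

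**Figure D1:**
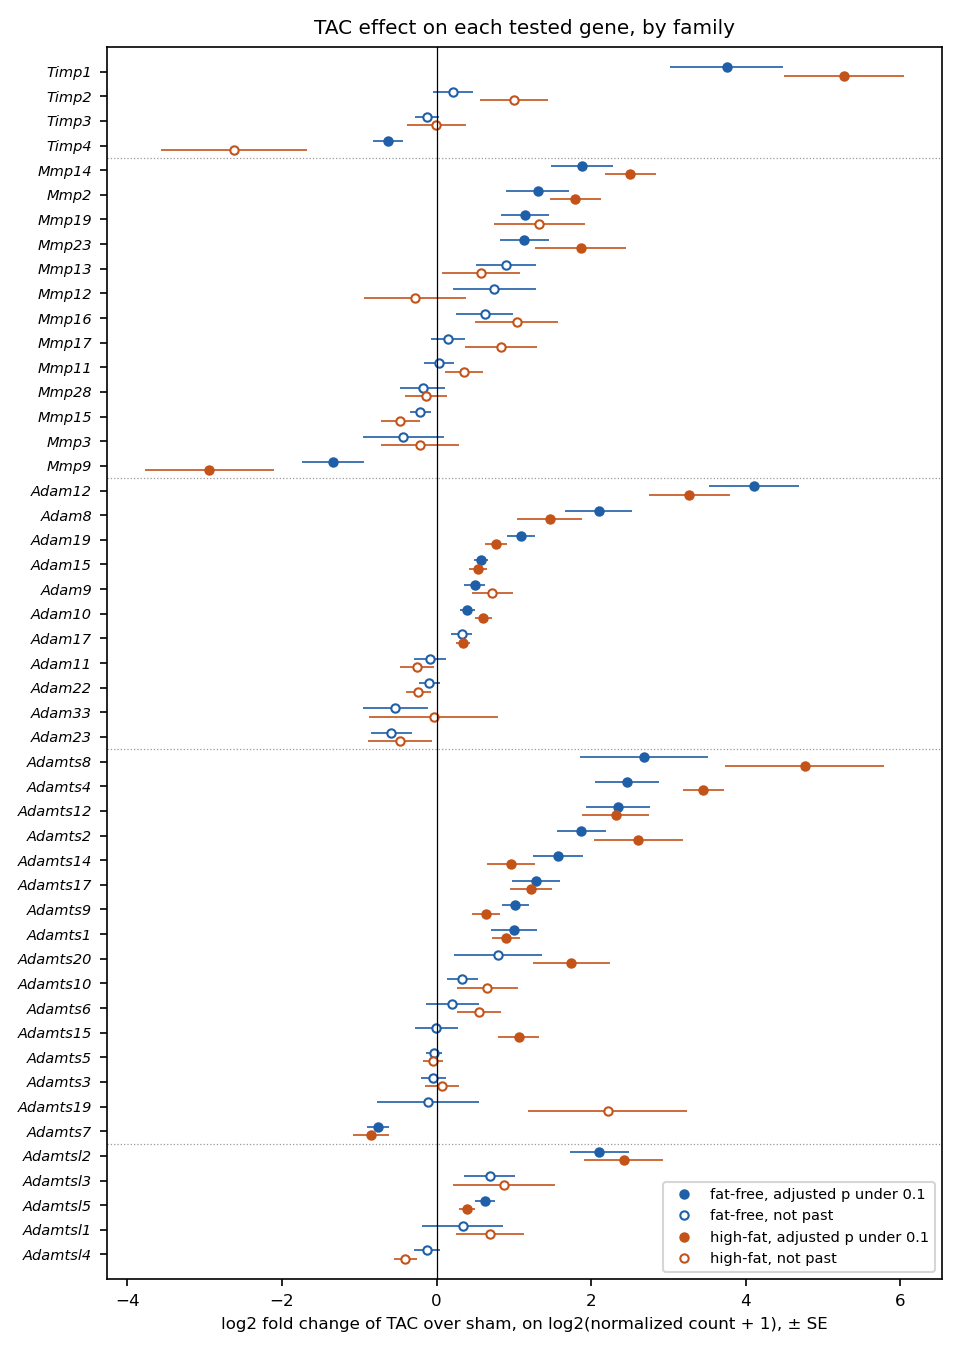
Log2 fold change of TAC over sham on log2(normalized count + 1) with its SE for the 49 genes tested on both diets, ordered by family, with filled points past the adjusted p threshold of 0.1. Timp1, Adam12, Adamts8 and Adamts4 lie farthest to the right, and Mmp9, Timp4 and Adamts7 to the left.

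Among the inhibitors, Timp1 rose steeply and Timp4 moved the other way. Timp2 and Timp3 did not pass the test on either diet with all libraries of the diet in the fit. Timp1 (chromosome X, 20870166 to 20874737, mm10), the inducible family member, counted 106, 25 and 83 in fat-free sham and 1102, 1814 and 283 in TAC. With high-fat food it counted 15 and 48 in sham and 2349, 455 and 1171 in TAC. Every TAC library lay above every sham library of its diet, and fat-free TAC replicate 3 and high-fat TAC replicate 2 were the lowest of their groups. The log2 fold change was 3.75 ± 0.73 on the fat-free diet (adjusted p = 0.0167) and 5.27 ± 0.78 on the high-fat diet (adjusted p = 0.0303). Leaving out 1 library at a time gave 3.13 to 4.52 and 4.46 to 6.08.

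Timp4 (chromosome 6, 115245616 to 115251849, mm10) is the inhibitor known for its high level in mouse heart muscle. It counted 956, 1344 and 1026 in fat-free sham and 662, 581 and 923 in fat-free TAC, so the groups lay close without overlap. It fell by 0.63 on the log2 scale (SE 0.19, adjusted p = 0.0641), a call that was lost without TAC replicate 1 or 2 or sham replicate 2 or 3. On the high-fat diet it counted 1149 and 1649 in sham and 55, 502 and 393 in TAC. There TAC replicate 1, rich in Myl7, was far below the other TAC libraries. The heart muscle markers summed to 800528 in that library, 1233106 and 1208822 in the other TAC libraries, and 1609034 and 1513060 in sham, and their part in the Timp4 values was not tested. The log2 fold change of -2.63 ± 0.94 missed the threshold (adjusted p = 0.102). Without TAC replicate 1 it was -1.63, and Timp4 passed. It also passed in the authors' deposited table (adjusted p = 0.0701).

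Timp3, which binds the matrix and also blocks ADAM17 and ADAMTS enzymes, had the highest mean level per kb of exon of the 78 genes in all 4 groups. It counted 11104, 7487 and 9777 in fat-free sham, 9580, 7781 and 8440 in fat-free TAC, 6780 and 8945 in high-fat sham, and 13156, 5848 and 6079 in high-fat TAC. The groups overlapped on both diets, with log2 fold changes of -0.12 ± 0.15 and -0.0047 ± 0.38. On the high-fat diet TAC replicate 1 alone lay above sham. Without it the value was -0.39, and Timp3 passed as lower. Timp2, which blocks MMP2 and, with MMP14, also takes part in its activation, counted 4293, 2302 and 3343 in fat-free sham and 5118, 3132 and 3208 in fat-free TAC. For the high-fat groups, it counted 2043 and 2466 in sham and 8422, 3217 and 3337 in TAC. The high-fat groups did not overlap, TAC replicate 1 stood apart, and limma gave 1.00 ± 0.44 (adjusted p = 0.147). Without TAC replicate 1 the value was 0.55, and Timp2 passed as higher. The authors' deposited table gives Timp2 an adjusted p of 0.0348 on the high-fat diet. On the fat-free diet the log2 fold change of Timp2 was 0.21 ± 0.26.

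**Figure D2:**
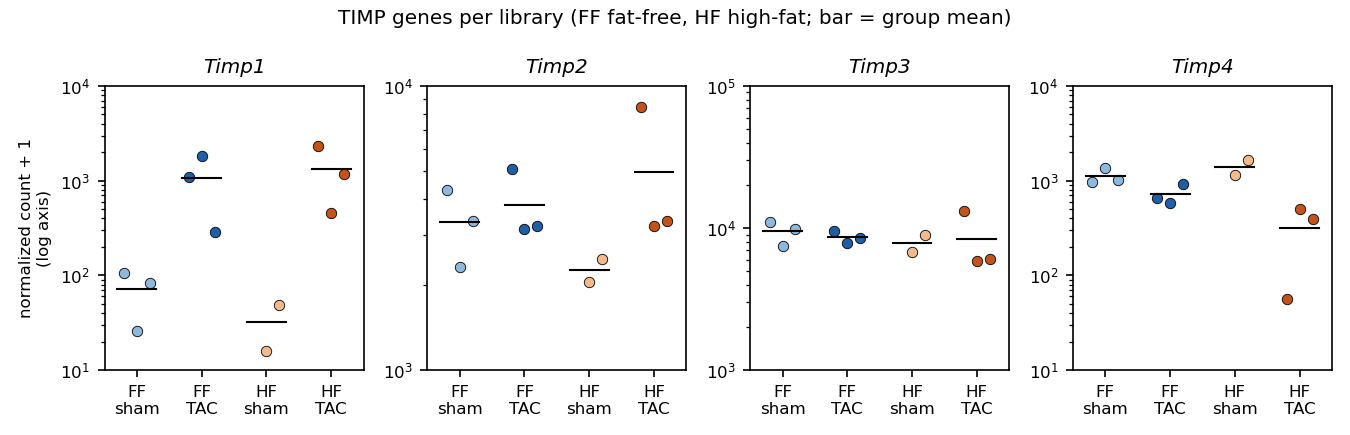
Normalized counts + 1 on a log axis for the 4 Timp genes, 1 point per library and a bar at the group mean. Timp1 sits between 15 and 106 counts in the sham libraries and between 283 and 2349 in the TAC libraries, while Timp3 overlaps between the groups.

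Counted per kb of exon, so that genes of different length can be set side by side, the make-up of the inhibitor transcripts differed between sham and TAC libraries. Timp1 made up 2.74%, 0.874% and 2.44% of the summed Timp level in the fat-free sham libraries and 0.593% and 1.42% in the high-fat sham libraries. In the TAC libraries it made up 24.0%, 41.0% and 8.69% on the fat-free diet and 33.8%, 17% and 34.5% on the high-fat diet. Timp4 took 15.5% to 29.5% in fat-free sham and 8.25% to 17.8% in fat-free TAC. In high-fat hearts Timp4 took 28.6% and 30.6% in sham and 0.497%, 11.8% and 7.28% in TAC. The summed Timp level divided by the summed Mmp level per kb was 2.23, 1.99 and 1.92 in fat-free sham and 1.06, 2.12 and 1.48 in fat-free TAC. These overlapped. Under high-fat feeding, it was 1.57 and 2.10 in sham and 1.34, 0.940 and 1.18 in TAC, all TAC libraries below all sham libraries. No test was made on these sums and shares, which are descriptions of transcript levels and not of enzyme activity.

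**Figure D3:**
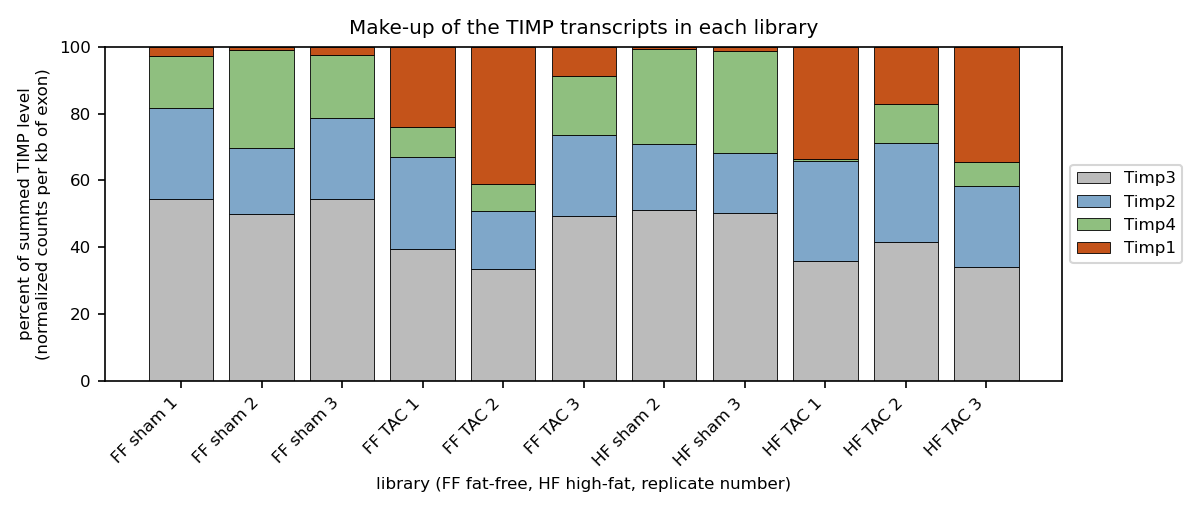
Share of each Timp gene in the summed Timp level of a library, in normalized counts per kb of exon, 1 bar per library. The Timp1 segment is at most 2.74% in the sham libraries and between 8.69% and 41.0% in the TAC libraries.

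Of the 13 Mmp genes tested on the fat-free diet, 4 rose, 1 fell and 8 did not pass. For the high-fat groups, 3 rose, 1 fell and 9 did not pass. The 3 of 13 higher and 1 of 13 lower there are near the 16.9% and 14.8% of all genes. The largest rise was that of Mmp14 (chromosome 14, 54431604 to 54441258, mm10), the membrane-bound collagenase that activates the MMP2 precursor. Mmp14 counted 430, 292 and 482 in fat-free sham and 2749, 1377 and 797 in TAC, and 342 and 478 in high-fat sham and 3517, 1746 and 1977 in TAC. No TAC library overlapped with a sham library. The log2 fold changes were 1.88 ± 0.40 (adjusted p = 0.0223) and 2.50 ± 0.33 (adjusted p = 0.0255). Mmp2, gelatinase A, counted 1477, 1068 and 1569 in fat-free sham and 6872, 1995 and 2730 in TAC. In high-fat hearts Mmp2 counted 1310 and 1540 in sham and 7802, 4010 and 3837 in TAC. TAC replicate 1 was the highest on either diet. Mmp2 rose by 1.31 ± 0.40 (adjusted p = 0.0649) and 1.80 ± 0.32 (adjusted p = 0.0381), and the fat-free call was lost without any 1 of the sham replicates. Without fat-free TAC replicate 1 the value was 0.79.

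Mmp2 made up 21.7% to 25.8% of the summed Mmp level per kb in fat-free sham and 28.0% to 46.3% in fat-free TAC, and 23.9% and 27.8% against 38.9% to 44.0% on the high-fat diet. Mmp15, a membrane-bound enzyme of the same class as MMP14, was the most abundant Mmp gene per kb in sham hearts. It counted 3117, 3570 and 3394 in fat-free sham and 2827, 2430 and 3559 in fat-free TAC. Under high-fat feeding, Mmp15 counted 3458 and 3062 in sham and 1687, 3026 and 2546 in TAC. The groups overlapped on the fat-free diet and did not on the high-fat diet. Mmp15 did not pass on either diet (-0.21 ± 0.14 and -0.47 ± 0.25). Its share of the summed Mmp level per kb was 37.3% to 51.6% in fat-free sham and 13.5% to 33.7% in fat-free TAC. Mmp23, a membrane-anchored family member, rose on both diets (1.13 and 1.86), and Mmp19, a secreted enzyme, on the fat-free diet (1.15). On the fat-free diet the calls of Mmp19 and Mmp23 were lost without TAC replicate 1 or 2 or sham replicate 2 or 3. Mmp11, Mmp16, Mmp17 and Mmp28 did not pass limma, with values of -0.18 to 0.62 on the fat-free and -0.14 to 1.04 on the high-fat diet. In the authors' deposited table Mmp17 passed on the high-fat diet (adjusted p = 0.0362), as did Mmp19 (adjusted p = 0.00805) and the low Mmp24 (adjusted p = 0.0234).

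Mmp9 (chromosome 2, 164948251 to 164955846, mm10), gelatinase B, which neutrophils store, was lower after TAC. It counted 44, 40 and 36 in fat-free sham and 27, 14 and 9 in TAC, and 307 and 44 in high-fat sham and 9, 19 and 17 in TAC. The groups did not overlap, and high-fat sham replicate 2 stood far above every other library. Mmp9 fell by 1.34 (SE 0.40, adjusted p = 0.0603) and by 2.94 (SE 0.83, adjusted p = 0.0686) on the log2 scale. Without high-fat sham replicate 2 the value was -1.55 and the call was lost, and the fat-free call held only without TAC replicate 1. The authors' deposited table has no adjusted p for Mmp9 on the high-fat diet. Among the 5 neutrophil markers, Ly6g was at 0 in every library and Retnlg at 8 or fewer. S100a8 counted 52 and 70 in high-fat sham and 6, 16 and 29 in high-fat TAC, and S100a8 fell there (-2.0), while Csf3r rose on both diets (1.58 and 0.84). Summed, the neutrophil markers held 34 to 48 counts in fat-free sham, 55 to 172 in fat-free TAC, 141 and 177 in high-fat sham and 98 to 137 in high-fat TAC. Their part in the Mmp9 values was not tested.

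The gene of the stromelysin MMP3 lies in a row of 10 Mmp genes on chromosome 9 (7272514 to 7699416, mm10). None of the 10 was called on either diet. Mmp1a, Mmp1b, Mmp7 and Mmp20 were at 0 in all libraries, and Mmp10 and Mmp27 had at most 12 counts. Mmp8, the neutrophil collagenase gene, counted 0, 5 and 1 in fat-free sham, 3, 3 and 6 in fat-free TAC, 0 and 1 in high-fat sham, and 4, 2 and 3 in high-fat TAC. The other members, Mmp3, Mmp12 (macrophage elastase) and Mmp13 (collagenase 3), were tested. Mmp3 counted 338, 83 and 288 in fat-free sham, 220, 156 and 96 in fat-free TAC, 87 and 131 in high-fat sham, and 169, 52 and 88 in high-fat TAC. Its sham and TAC libraries overlapped, and in fat-free sham it was high in the replicates that were high in Myl7. The log2 fold changes of Mmp3 were -0.43 ± 0.53 and -0.21 ± 0.51. Mmp13 stayed at 9 to 42 counts and Mmp12 at 7 to 57.

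The chromosome 9 genes lie side by side, and apart from Mmp3 they were at low levels or at 0. Some of their promoters are printed here beside those of genes that rose, so that their letters can be compared. The motif TGANTCA, which the transcription factor AP-1 binds, and the TATA box TATAAA were looked for on both strands (their letters cannot overlap) from 250 bases before to 50 bases after each RefSeq start (build GRCm38.p6). Promoters were at hand for 48 of the 78 genes. TGANTCA was present in the promoters of 8 of the 10 chromosome 9 genes and of 4 of the 38 other genes (4 of their 41 promoters, 9.76%), and 7.81% of all 32851 promoters hold it. TATAAA was present in 75.0% of the promoters of the chromosome 9 genes and in 13.6% of all promoters. Both motifs together were found in 8 of 12 promoters of the chromosome 9 genes (66.7%), in 2.44% of those of the other genes and in 1.54% of all promoters. The sequences below run over the 100 bases before the start, 5′ to 3′, with both motifs in capitals. In Mmp12 the TATAAA lies after the start and outside the stretch shown.
Mmp3 (chr9:7445722-7445821, plus strand): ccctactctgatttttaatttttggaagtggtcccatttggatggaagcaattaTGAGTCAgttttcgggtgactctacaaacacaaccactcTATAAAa
Mmp10 (chr9:7502242-7502341, plus strand): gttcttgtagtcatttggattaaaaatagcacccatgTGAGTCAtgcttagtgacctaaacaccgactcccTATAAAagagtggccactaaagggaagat
Mmp12 (chr9:7347274-7347373, plus strand): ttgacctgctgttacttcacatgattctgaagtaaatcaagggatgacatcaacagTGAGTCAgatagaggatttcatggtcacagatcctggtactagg
Mmp13 (chr9:7272414-7272513, plus strand): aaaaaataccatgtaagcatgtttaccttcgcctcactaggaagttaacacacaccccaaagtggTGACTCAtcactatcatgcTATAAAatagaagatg
Of the genes that rose, Mmp14, Timp1 and Adamts2 are shown for comparison and hold neither motif in this stretch.
Mmp14 (chr14:54431498-54431597, plus strand): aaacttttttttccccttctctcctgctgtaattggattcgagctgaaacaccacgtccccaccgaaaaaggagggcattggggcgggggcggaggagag
Timp1 (chrX:20870066-20870165, plus strand): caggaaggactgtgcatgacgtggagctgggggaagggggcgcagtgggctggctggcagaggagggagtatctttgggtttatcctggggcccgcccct
Adamts2 (chr11:50601985-50602084, plus strand): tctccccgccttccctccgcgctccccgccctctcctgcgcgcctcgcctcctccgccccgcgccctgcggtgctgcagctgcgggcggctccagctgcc
Counted from the RefSeq start, the AP-1 motif of Mmp3 begins at base -46 and its TATAAA at -7. In Mmp13 they begin at -35 and -16, and in Mmp10 at -63 and -29. Some genes that rose also hold a motif, Adamts1 and Adamtsl2 a TATA box at -32 and -30 and Adam19 an AP-1 motif at -131. For 41 of the 53 promoters of these genes, bases 11 to 40 after the start were found in a transcript of the gene. That checks the strand and not the place of the start, so all positions rest on the RefSeq start alone. A match of letters is not a binding site, and a window without one says nothing about the factor.

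**Figure D4:**
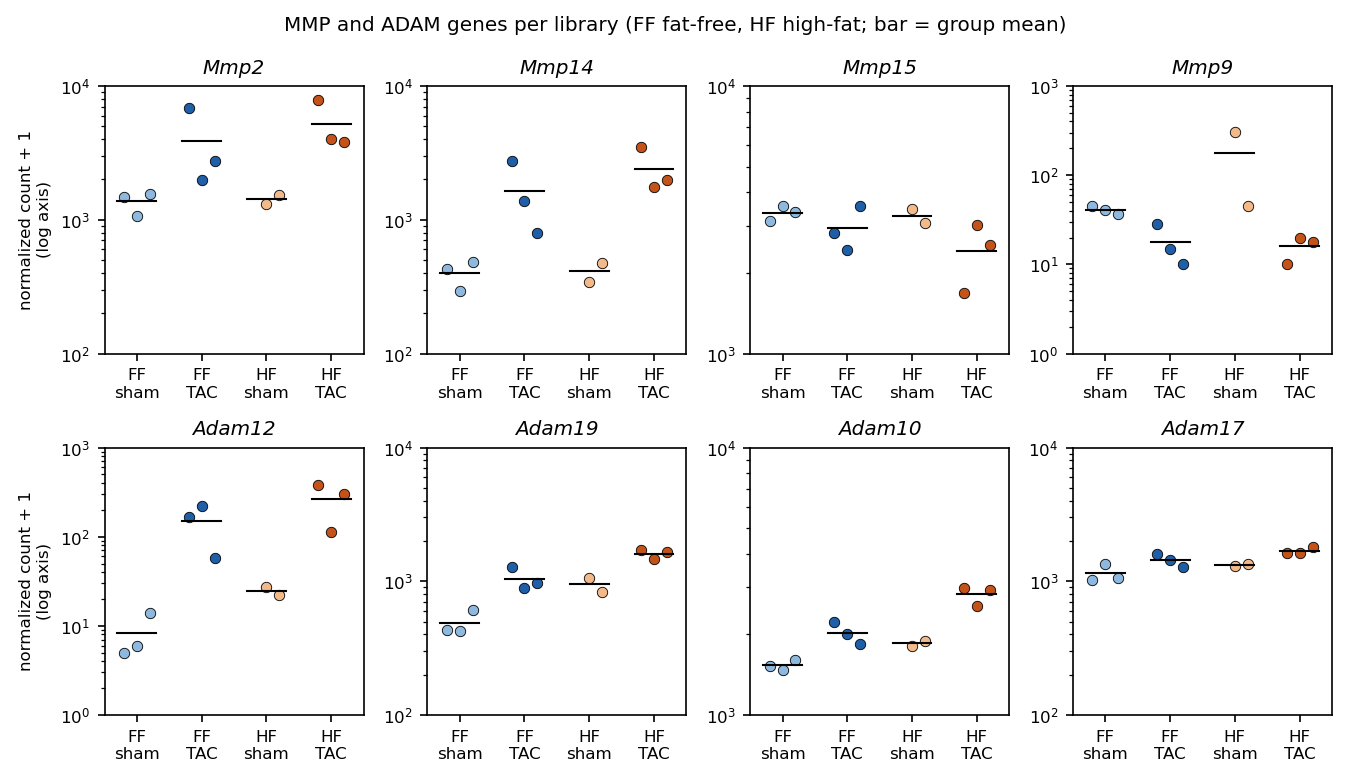
Normalized counts + 1 on a log axis for 4 Mmp and 4 Adam genes, 1 point per library and a bar at the group mean. Mmp14, Mmp2 and Adam12 are higher in all TAC libraries of a diet, Mmp9 is lower, and Mmp15 overlaps on the fat-free diet.

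Of the 11 Adam genes tested on the fat-free diet 6 rose and 5 did not pass, and of the 12 tested on the high-fat diet 6 rose and 6 did not pass. None fell. Adam12 (chromosome 7, 133883199 to 134225097, mm10), known as meltrin alpha and as a sheddase of heparin-binding EGF, had the largest fold change. It counted 4, 5 and 13 in fat-free sham and 165, 221 and 57 in TAC, and 26 and 21 in high-fat sham and 376, 113 and 300 in TAC. All TAC libraries were above all sham libraries, from a level near the lower limit of the test on the fat-free diet. The log2 fold changes were 4.10 ± 0.58 (adjusted p = 0.00675) and 3.27 ± 0.52 (adjusted p = 0.0352). Adam12 met the fat-free filter through TAC libraries, so that call is given no weight. Adam19, meltrin beta, which can release neuregulin, counted 432, 426 and 605 in fat-free sham and 1275, 884 and 968 in TAC. For the high-fat groups, Adam19 counted 1062 and 832 in sham and 1716, 1458 and 1653 in TAC. It rose by 1.10 ± 0.18 (adjusted p = 0.0108) and 0.77 ± 0.14 (adjusted p = 0.0391). Adam8, known from myeloid cells, counted 19, 11 and 21 in fat-free sham and 97, 105 and 39 in TAC, and 15 and 21 in high-fat sham and 83, 38 and 41 in TAC. Adam8 rose by 2.10 ± 0.43 and 1.46 ± 0.43 (adjusted p = 0.0198 and 0.0718).

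The broadly expressed sheddases moved by less. Adam10, which cuts Notch and cadherins, counted 1527, 1472 and 1608 in fat-free sham and 2221, 2007 and 1849 in TAC, and 1814 and 1888 in high-fat sham and 2976, 2565 and 2931 in TAC. The spread within each group was small, and Adam10 rose by 0.40 ± 0.096 (adjusted p = 0.0320) and 0.61 ± 0.11 (adjusted p = 0.0377). Adam17, the TNF-releasing enzyme, counted 1027, 1354 and 1050 in fat-free sham and 1592, 1430 and 1267 in TAC. In high-fat hearts Adam17 counted 1309 and 1341 in sham and 1619, 1630 and 1790 in TAC. The fat-free groups overlapped (0.33 ± 0.14, adjusted p = 0.142), and on the high-fat diet Adam17 rose (0.34 ± 0.095, adjusted p = 0.0666). The difference between the diets was 0.013 (limma, adjusted p = 0.990).

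Adam15 counted 1603, 1675 and 1749 in fat-free sham and 2693, 2417 and 2364 in TAC, and 1841 and 1900 in high-fat sham and 2518, 2612 and 3044 in TAC. It rose by 0.57 ± 0.089 and 0.54 ± 0.11 (adjusted p = 0.00873 and 0.0473). Adam9 counted 1751, 1771 and 1757 in fat-free sham and 2981, 2553 and 1984 in TAC, and 2013 and 2201 in high-fat sham and 4951, 2681 and 3155 in TAC. Its groups did not overlap on either diet. Adam9 rose on the fat-free diet (0.49 ± 0.14, adjusted p = 0.0538), a call that held only without TAC replicate 3. Under high-fat feeding, limma gave 0.72 ± 0.26 (adjusted p = 0.103), and the authors' deposited table gives an adjusted p of 0.00352. Adam11, Adam22 and Adam23, which lack an active protease site and act as receptors in nerve cells, did not pass on either diet (-0.59 to -0.085 on the fat-free and -0.48 to -0.24 on the high-fat diet). Adam33 had -0.53 and -0.039 without passing, and Adam5, tested on the high-fat diet alone, had 1.53 (adjusted p = 0.129).

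Adamts genes rose in the largest number, and they were also the family with the most genes tested. Of 16 tested on the fat-free diet 8 rose, 1 fell and 7 did not pass. Of 17 on the high-fat diet 11 rose, 1 fell and 5 did not pass. The genes that met the filter through TAC libraries were Adamts4 and Adamts8 among the 8. Among the 11 they were Adamts4, Adamts16 and Adamts20. Among the procollagen peptidases, which trim the N-terminal ends of fibrillar procollagens, Adamts2 and Adamts14 rose and Adamts3 did not pass. Adamts2 counted 460, 290 and 453 in fat-free sham and 2264, 1422 and 928 in TAC, and 275 and 340 in high-fat sham and 4208, 1044 and 1489 in TAC. High-fat TAC replicate 1 held more than the other TAC libraries of that diet, and all TAC libraries were above sham. Adamts2 rose by 1.87 ± 0.31 (adjusted p = 0.0109) and 2.61 ± 0.57 (adjusted p = 0.0489). Adamts14 rose by 1.57 and 0.96, and Adamts3 had log2 fold changes of -0.043 and 0.073.

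The proteoglycanases, which cut versican and aggrecan, did not move alike. Adamts4 (chromosome 1, 171250422 to 171259922, mm10) counted 9, 11 and 11 in fat-free sham and 90, 79 and 32 in TAC, and 9 and 14 in high-fat sham and 140, 128 and 131 in TAC. The high-fat TAC libraries were nearly equal. The log2 fold changes of Adamts4 were 2.46 ± 0.42 (adjusted p = 0.0112) and 3.45 ± 0.26 (adjusted p = 0.0156). It met the filter on both diets through TAC libraries, so its calls are given no weight. Adamts5, the close relative of Adamts4, counted 658, 692 and 739 in fat-free sham and 751, 674 and 620 in TAC, and 780 and 875 in high-fat sham and 826, 865 and 713 in TAC. Its groups overlapped, with -0.033 ± 0.11 and -0.049 ± 0.13. Adamts1 counted 1228, 1050 and 2082 in fat-free sham and 2419, 4073 and 2177 in TAC, and 972 and 1307 in high-fat sham and 2352, 1774 and 2239 in TAC. Adamts1 rose by 1.00 ± 0.30 (adjusted p = 0.0588) and 0.90 ± 0.18 (adjusted p = 0.0437), and the fat-free call was lost without TAC replicate 2 or sham replicate 1 or 2. Adamts9 counted 278, 349 and 325 in fat-free sham and 677, 771 and 504 in TAC, and 512 and 418 in high-fat sham and 655, 645 and 876 in TAC. It rose by 1.02 ± 0.17 and 0.63 ± 0.18 (adjusted p = 0.0113 and 0.0694).

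Adamts8 (chromosome 9, 30942563 to 30962858, mm10) is a family member able to hinder vessel growth. It counted 74, 9 and 56 in fat-free sham and 354, 376 and 84 in TAC, and 12 and 23 in high-fat sham and 2104, 211 and 246 in TAC. In fat-free sham it was low in replicate 2, the one low in Myl7, and in high-fat TAC it was highest in replicate 1, the one high in Myl7. Adamts8 rose by 2.69 ± 0.83 (adjusted p = 0.0643) and 4.76 ± 1.03 (adjusted p = 0.0480). It met the fat-free filter through TAC libraries, so its fat-free call is given no weight. Without high-fat TAC replicate 1 the value was 3.70 and the call held. The fat-free call was lost without TAC replicate 1 or 2 or sham replicate 2, and without the last of these the value was 1.78. The authors' deposited table has no adjusted p for Adamts8 on the high-fat diet. Adamts15 and Adamts20 rose on the high-fat diet (1.06 and 1.74) and had -0.0036 and 0.79 on the fat-free diet, without passing. Adamts20 met the high-fat filter through TAC libraries, so that call is given no weight. Adamts16 counted 0, 3 and 0 in fat-free sham and 77, 6 and 0 in TAC, too few libraries for a test. For the high-fat groups, it was listed at 0 in both sham libraries and counted 46, 16 and 10 in TAC. It met the filter there only through the TAC libraries, so its call is given no weight. Adamts6, Adamts10 and Adamts19 did not pass limma on either diet, while the authors' deposited table passes Adamts6 (adjusted p = 0.0636) and Adamts10 (adjusted p = 0.0654) on the high-fat diet. Adamts19 counted 7 and 12 in high-fat sham and 198, 27 and 18 in high-fat TAC, so that replicate 1 again stood apart.

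Adamts7 and Adamts12 are near relatives that both cut cartilage oligomeric matrix protein, and they moved in opposite directions. Adamts12 counted 22, 19 and 36 in fat-free sham and 240, 89 and 102 in TAC, and 43 and 37 in high-fat sham and 357, 129 and 180 in TAC. It rose by 2.35 ± 0.41 and 2.31 ± 0.43 (adjusted p = 0.0122 and 0.0399). Adamts7 (chromosome 9, 90162978 to 90200102, mm10) counted 771, 666 and 623 in fat-free sham and 456, 341 and 427 in TAC, and 706 and 654 in high-fat sham and 281, 485 and 392 in TAC. No library of TAC reached a sham library of its diet. Adamts7 fell by 0.75 (SE 0.14, adjusted p = 0.0157) and by 0.85 (SE 0.24, adjusted p = 0.0666), and with library total alone its high-fat value was -0.43 and the call was lost (adjusted p = 0.104). Adamts17, a gene whose human counterpart is mutated in a short-stature syndrome, rose on both diets (1.28 and 1.23), and its fat-free call was lost without TAC replicate 1.

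**Figure D5:**
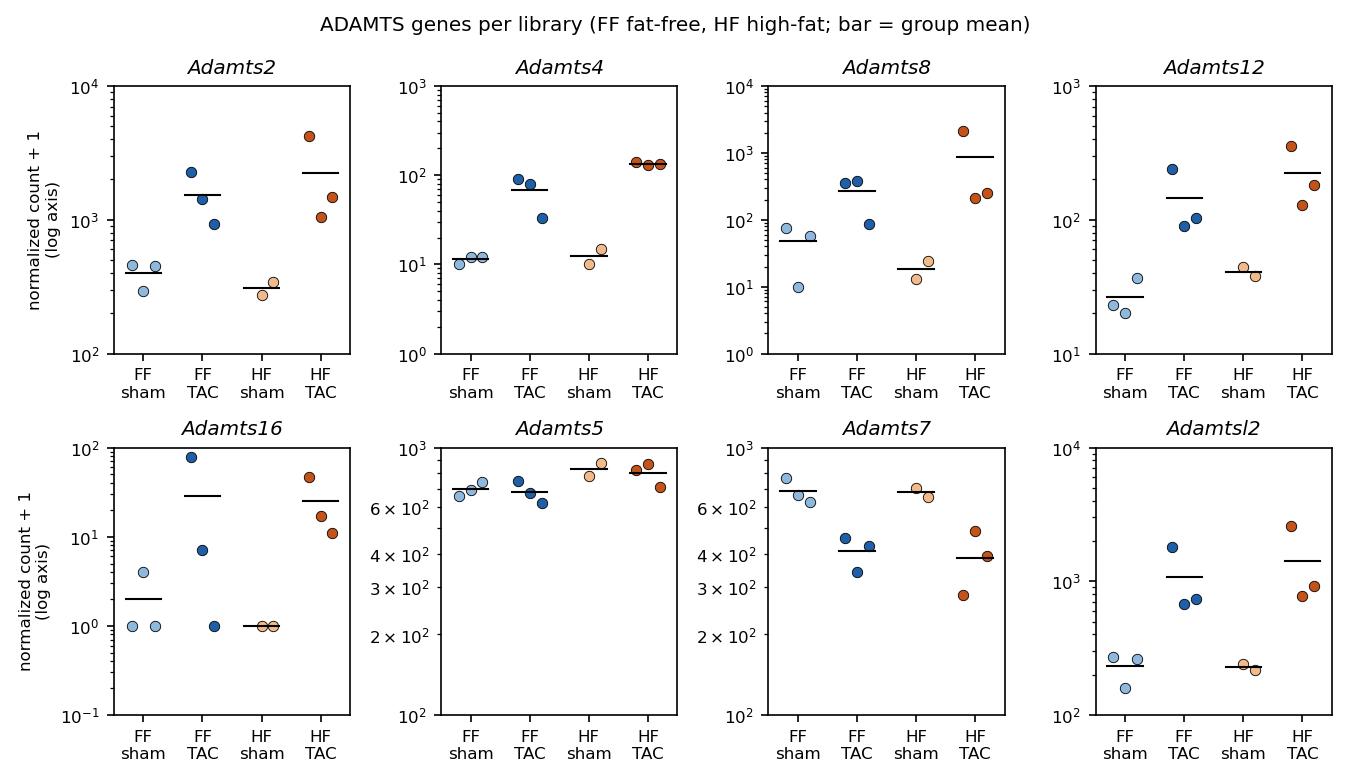
Normalized counts + 1 on a log axis for 7 Adamts genes and Adamtsl2, 1 point per library and a bar at the group mean. Adamts2, Adamts4, Adamts8, Adamts12 and Adamtsl2 are higher in all TAC libraries of a diet, Adamts7 is lower in all, and Adamts5 overlaps.

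The ADAMTS-like proteins have no protease domain and bind the matrix. All 5 genes were tested on both diets, and Adamtsl2 and Adamtsl5 rose on both. Adamtsl2, which binds fibrillin and latent TGF-beta binding protein, counted 269, 159 and 263 in fat-free sham and 1816, 673 and 741 in TAC, and 239 and 217 in high-fat sham and 2577, 772 and 917 in TAC. TAC replicate 1 was the highest on either diet, and no TAC library overlapped with sham. Adamtsl2 rose by 2.11 ± 0.38 (adjusted p = 0.0132) and 2.42 ± 0.51 (adjusted p = 0.0469). Adamtsl5 rose by 0.62 and 0.39. Adamtsl1, Adamtsl3 and Adamtsl4 had 0.34, 0.69 and -0.13 on the fat-free and 0.69, 0.87 and -0.40 on the high-fat diet and did not pass limma. The authors' deposited table passes all 3 on the high-fat diet (adjusted p = 0.0714, 0.0818 and 0.0300).

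Whether the TAC effect differed between the diets was tested as the difference of the log2 fold changes over all 11 libraries. By limma 0 of 49 genes passed, as did 0% of the 14032 genes tested. At an unadjusted p under 0.05 there were 1 of the 49 and 4.33% of all genes. That gene was Adamts15, with 286, 214 and 197 counts in fat-free sham and 307, 265 and 147 in TAC, and 204 and 221 in high-fat sham and 609, 328 and 441 in TAC. The difference, high-fat minus fat-free, was 1.07 (unadjusted p = 0.0329, adjusted p = 0.794). For Timp4 it was -2.0 (unadjusted p = 0.0669), for Adamts4 0.99 (unadjusted p = 0.0939) and for Timp1 1.52 (unadjusted p = 0.244), each with an adjusted limma p of 0.794 or more. Genes called on 1 diet alone, such as Mmp19 and Adamts20, were therefore not shown to respond differently. The 4 genes named here for their difference were chosen after their values were seen.

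Other genes of matrix turnover were taken from lists chosen by function, and their counts stand beside 14.2% higher and 10% lower of all genes on the fat-free diet and 16.9% and 14.8% on the high-fat diet. Of 14 tested genes of the plasminogen system and serine proteases, 5 rose and 1 fell on the fat-free diet, and 6 rose and none fell on the high-fat diet. Plat, tissue plasminogen activator, rose by 1.00 and 1.20. Of the cathepsins and cystatins, 7 of 14 rose and 1 fell on the fat-free diet and 7 of 15 rose and 1 fell on the high-fat diet. Ctsw, among the 7 of 15, met the high-fat filter through TAC libraries, so its call is given no weight. Ctsk, a collagen-cutting cathepsin, rose by 1.35 and 2.50, and Ctss, made by macrophages, by 1.72 and 1.61. Ctsf, a lysosomal cathepsin, fell by 0.42 and 0.67. Of 20 other regulators, 5 rose and none fell on the fat-free diet. On the high-fat diet 3 rose and 4 fell, shares near those of all genes. Those higher on both diets included Bmp1, which removes the C-terminal end of procollagens (1.04 and 1.26), and its enhancer Pcolce (1.31 and 1.71). The 4 that fell there included Bsg, a membrane protein known to induce metalloproteinases (-0.77). Reck, a membrane inhibitor of metalloproteinases, and Furin, which activates MMP14 and ADAM precursors, passed on neither diet.

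Genes of proteins that ADAMTS enzymes cut were called higher in most cases, 11 of 16 tested on the fat-free diet and 14 of 15 on the high-fat diet, with medians of 1.99 and 3.32. Of the 14, Acan (2 and 2 counts in high-fat sham) and Comp (9 and 32) met the filter through TAC libraries. Their high-fat calls are given no weight. Versican, Vcan, counted 566, 286 and 416 in fat-free sham and 1608, 2000 and 948 in TAC, and 243 and 346 in high-fat sham and 2976, 957 and 1891 in TAC. Vcan rose by 1.83 and 2.59. Among 27 and 26 genes of proteins shed by ADAM enzymes or of their partners, 8 rose and none fell on the fat-free diet, and 10 rose and 1 fell on the high-fat diet. Ereg, among the 10, met the high-fat filter through TAC libraries, so its call is given no weight. Hbegf, the heparin-binding EGF-like growth factor, rose by 1.10 and 1.07, and Tnfrsf1b, a TNF receptor, by 1.00 and 0.97.

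Markers of other cell types moved in the same libraries. Of 5 markers of activated fibroblasts 4 rose on both diets, with sums of 4127 to 6222 counts in fat-free sham, 13864 to 52641 in fat-free TAC, 3348 and 4151 in high-fat sham and 24622 to 78346 in high-fat TAC. All 5 macrophage markers rose on both diets, from sums of 2813 to 3193 to 5294 to 8560 on the fat-free and from 2238 and 2805 to 4299 to 6805 on the high-fat diet. None of these markers was at 0 in any library. Cthrc1, among the 4 activated fibroblast markers that rose, met the filter on both diets through TAC libraries. Its calls are given no weight. Of the 23 genes called higher on the high-fat diet, 19 had their highest TAC value in replicate 1, as did 38 of all 51 tested. That library also had the highest sum of activated fibroblast markers (78346), of atrial markers (86150, against 173 and 140 in the other TAC libraries) and of fat cell markers (1669, against 5 and 4). On the fat-free diet 14 of 21 were highest in TAC replicate 1, 7 in replicate 2 and none in replicate 3. The activated fibroblast sums were 52641, 37622 and 13864 in that order. Of the 49 genes tested there, called or not, 33 were highest in replicate 1. The same shares over all genes were not computed. Of 5 resting fibroblast markers Gsn fell on both diets and Lum rose on the high-fat diet. All 5 fat cell markers fell on the fat-free diet, from sums of 485 to 775 counts in sham to 11 to 311 in TAC. All 5 markers of cycling cells rose on both diets. Among these, Ccnb1 met the filter on both diets through TAC libraries, so its calls are given no weight. The part of cell make-up in the protease and inhibitor values was not tested.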

How the data were processed

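RNA was measured in mouse hearts by sequencing of stranded mRNA libraries, per the labels' protocols. The authors handled reads with STAR, Subread, featureCounts and DESeq2 on build mm10, per the submitters' processing notes, whose versions and settings are not given in the sources used here. The values per library were deposited as whole numbers whose gaps at low levels are those of counts divided by a size factor and rounded, so they are handled as a score on the count scale. The deposited fold changes are shrunken log2 values, per the file headers, and the deposited adjusted p-value is from DESeq2 at 10% FDR, per the series design text. The exon length in bases is also per the file headers. Of 12 labelled libraries 11 had a column, matched by group and replicate in its header, and 0 columns were left unmatched. No 2 libraries held identical values. Depth per library is given as the total of normalized counts.

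Genes were tested with at least 10 normalized counts in 3 libraries (fat-free) or in 2 (high-fat, and in 2 of each diet for the difference). The test was limma 3.58.1 (R 4.3.3) on log2(value + 1) with a mean-variance trend. No count model was used, as none of the values are raw counts. Diets were not compared directly, since they were normalized separately. Genes named with all values were 24 fixed ones and those with the largest called changes. Adamts15, Adamts19, Vcan and other genes outside this rule were chosen after their values were seen. The genes and lists were chosen with earlier results of these data known. Alternatives were pseudocounts of 0.5 and 4, no filter, other scalings (library total, and TMM factors, the trimmed mean of log ratios), a replicate block, a Myl7 covariate, 1 fit over all libraries, the authors' deposited results and leaving out libraries. The fitting code was tested on simulated data. Promoter sequences are from RefSeq (GRCm38.p6). Figures were drawn with matplotlib 3.10.9. Some genes of the related lists are counted but not reported here by name.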

Additional observations from a re-analysis of the deposited data

How the results depend on the processing

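The counts of 21 higher and 3 lower genes on the fat-free diet were 16 to 22 and 1 to 3 when 1 library was left out. The 3 lower genes became 1 with all libraries in one fit, which lost Mmp9 and Timp4. Without the libraries above 1000 Myl7 counts, 0 higher and 0 lower genes passed. That setting leaves 1 sham library, assumed to vary like the others. The counts of 23 higher and 2 lower genes on the high-fat diet were 0 to 28 and 0 to 6 with 1 library left out, where a lone sham library is again assumed to vary like the TAC libraries. The 2 lower genes became 0 without a filter, 11 with the replicate block and 6 with log2 Myl7 as a covariate. Without a filter the calls of Adam8, Adamts9, Adamts14, Adamts20 and Mmp23 were lost too, leaving 18 of 25. The cause was not tested. For the difference between diets all settings gave 0 higher and 0 lower genes. The other settings kept these counts within 1.5 times. Deviations of same-numbered sham and TAC libraries had r = 0.443, 0.143 and -0.158 on the fat-free and 0.149 and -0.122 on the high-fat diet. Fat-free libraries of unlike number had r from -0.437 to 0.337. With 2 high-fat sham libraries their deviations mirror each other, so the check cannot decide pairing there. Whether the replicate numbers pair the libraries was not settled. With the replicate block 22 higher and 3 lower genes passed on the fat-free diet, 28 higher and 11 lower on the high-fat diet, and 0 for the difference. High-fat TAC replicate 1 has no partner there, so the block sets it aside.

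Directions turned for genes that had not passed. With library total alone Timp3 was 0.019 and Adamts5 0.11 on the fat-free diet, and Timp3 0.41, Mmp3 0.20 and Adamts5 0.37 on the high-fat diet. With the Myl7 covariate Timp3, Mmp3 and Adamts5 were 0.17, 0.57 and 0.045 on the fat-free diet. Without the libraries above 1000 Myl7 counts Timp3, Mmp3 and Adam17 were 0.11, 0.55 and -0.0085. On the high-fat diet Timp3 was 0.013 with TMM factors and 0.01 in the authors' deposited table. With 1 library left out the fat-free ranges were -0.027 to 0.42 for Timp2, -0.28 to 0.0022 for Timp3 and -0.11 to 0.033 for Adamts5. The high-fat ranges were -0.39 to 0.20 for Timp3, -0.65 to 0.19 for Mmp3 and -0.13 to 0.034 for Adamts5.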
